A study of Homo sapiens with 16 samples.

Results

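KLF5 binding was compared between M phase and S phase in LoVo, an established line of human colon adenocarcinoma cells, using every row of the 2 KLF5 peak lists from chromatin immunoprecipitation and sequencing (ChIP-seq). The lists hold 8046 peaks, 2118 of M phase and 5928 of S phase, of 146596 peaks in the 12 lists of the series. A peak was called shared, or kept when seen from S phase, if a KLF5 peak of the other phase overlapped it by at least 1 bp. The M-phase cells were blocked for 12 h in 2 mM thymidine and then held for 8 h in 200 ng/ml nocodazole, a drug that prevents spindle assembly. The S-phase cells came from a double block in 2 mM thymidine, with 12 h in the drug, 8 h of release and 12 h of a second block. Both groups were unmodified LoVo cells as far as their labels say, both were fixed in 1% formaldehyde and both received 5 µg of the same rabbit antibody, with rabbit IgG as the control. The design text of the series speaks of siRNA, but no label of these samples carries it. There was 1 library per phase, so the spread between samples is unknown and no test was made.

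KLF5 is a zinc-finger transcription factor of the Krüppel-like family that binds GC-rich elements in promoters and enhancers. It is active in the proliferating cells at the base of intestinal crypts and in many colorectal cancers. During mitosis chromosomes are condensed and transcription falls, and transcription factors differ in how much of their binding remains on the condensed chromosomes. What share of the cells was in mitosis is not stated in the labels, so less binding per cell and binding in fewer cells cannot be told apart.

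The libraries differed in ways that touch every comparison below. After removal of repeated tags, M phase had 7362169 tags and S phase 10345059, a ratio of 0.712. The share of tags removed as repeats was 43.8% in M phase and 13.7% in S phase. The control libraries held 6875106 tags in M phase and 10753369 in S phase. The headers place the libraries of the 2 phases in separately named sets of alignments, so phase and set cannot be told apart. The labels leave the number of M-phase KLF5 peaks open and place the length of that list, 2118, under the M-phase rabbit IgG control. Whether these 2 libraries were exchanged is not stated.

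M-phase KLF5 peaks fell at sites of S-phase KLF5 far more often than at sites of other proteins without KLF5. No peak list of the IgG control was compared at these sites, so whether the 2 libraries were exchanged was not tested. Of the S-phase HNF4A peaks, an M-phase KLF5 peak overlapped 14.9% of the 3198 that also had S-phase KLF5 and 1.06% of the 12239 that did not. HNF4A is a nuclear receptor of gut and liver epithelium. Among its 1000 S-phase peaks with most tags, the shares were 21.3% of 460 with KLF5 (95% interval 17.6 to 25.3%) and 3.15% of 540 without (1.84 to 4.99%). These strong HNF4A sites had similar HNF4A tag counts, with medians of 117 with KLF5 and 106 without. HNF4A itself was found again in M phase at 61.96% of them with KLF5 and at 68.3% without. The 1000 S-phase MYC peaks with most tags gave the same picture, with M-phase KLF5 at 16.8% of those with S-phase KLF5 and at 3.04% of those without. Intervals are exact Clopper-Pearson intervals for shares and order-statistic intervals for medians, over peaks, and cover counting error only.

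Of the M-phase KLF5 peaks, 685 of 2118 (32.3%) met an S-phase KLF5 peak, and of the S-phase peaks 676 of 5928 (11.4%) met an M-phase one. With summits within 100 bp these shares were 15.9% and 5.68%, and with 50% of each peak shared 17.1% and 6.12%. For lists of equal length by score they were 23.3% and 22.8%. At 1 bp overlap there were 1433 peaks listed only in M phase and 5252 listed only in S phase. Merged into sites, the lists gave 7358 sites, of which 673 (9.15%) carried KLF5 in both phases. At 659 of these a single M-phase peak met a single S-phase peak. The M-phase peak lay wholly inside the S-phase peak at 569 of the 659 (86.3%), and its summit lay inside it at 646 (98.0%).

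The M-phase list was composed of weak peaks for the most part, and the strong ones coincided with S-phase sites. Its median peak held 11 tags over 690.5 bp, with a range of 9 to 109 tags, and the median S-phase peak held 28 tags over 1330 bp, with a range of 12 to 275. The median false discovery rate (FDR) given by the authors was 19.8% in M phase, and every S-phase peak was at or under 2.62%. The M-phase HNF4A and MYC lists had a median FDR of 100%, with 0 of 2413 and 86 of 1974 peaks under 5%. Comparisons with these 2 lists use all of their listed peaks. Of the 70 M-phase KLF5 peaks with 30 or more tags, 69 (98.6%) overlapped S-phase KLF5. The share was 87.6% at 20 to 29 tags, 67.0% at 15 to 19 and 32.9% at 12 to 14. It was 9.49% of the 411 peaks with 9 tags and 7.38% of the 420 with 10. All of the 50 M-phase peaks with most tags were shared, as were 97 of the first 100 and 187 of the first 200. Peaks with an FDR under 5% were shared in 306 of 396 cases (77.3%), and the remaining 1722 in 379 cases (22.01%).

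From S phase the dependence on strength was as steep, but the strongest sites were not all kept. Kept shares were higher at higher S-phase tag counts, with 2.15% at 12 to 19 tags, 5.87% at 20 to 29, 9.32% at 30 to 39, 20.8% at 40 to 59, 37.3% at 60 to 99 and 69.8% at 100 or more. Of the 50 S-phase peaks with most tags, 37 were kept, of the first 100, 70, and of the first 500, 220. Kept S-phase peaks had a median of 47 tags over 1670 bp, and S-phase peaks without an M-phase peak 27 tags over 1296 bp. Shared M-phase peaks had a median of 16 tags over 865 bp, and those listed only in M phase 10 tags over 649 bp.

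**Figure D1:**
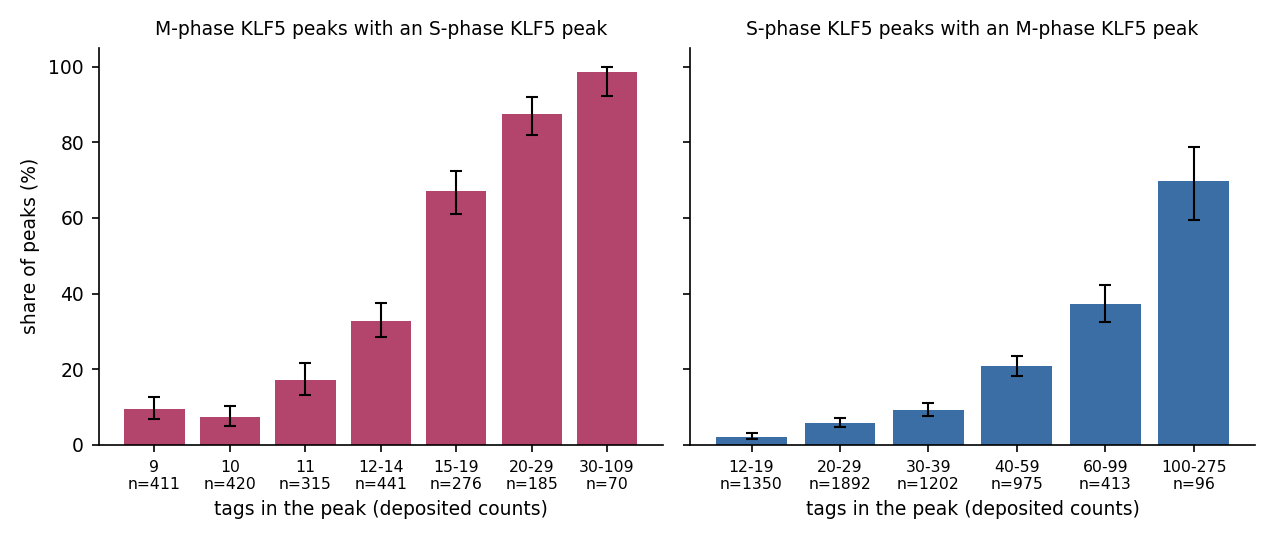
Share of KLF5 peaks that overlapped a KLF5 peak of the other phase, by the deposited tag count of the peak, for the M-phase list (left) and the S-phase list (right). Bars are shares in percent, error bars are exact 95% intervals and n is the number of peaks; the share reaches 98.6% in the highest M-phase class and 69.8% in the highest S-phase class.

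Scaled by the depth ratio of 0.712, the S-phase tag counts of 625 of the 676 kept peaks (92.5%) and of 3352 of the 5252 unkept peaks (63.8%) would reach 16 tags, the median of shared M-phase peaks. For 9 tags, the fewest of a listed M-phase peak, the shares were 99.9% of kept and 98.6% of unkept peaks. The S-phase counts were summed over wider peaks than those of M phase, so this is no measure of what the depth of the M-phase library accounts for, which was not tested. A peak that is not listed in M phase fell short of the caller's threshold, which is not a measurement of absence.

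Rank by fold enrichment, the authors' ratio of tags over local background, ordered the M-phase list differently. In 10 equal groups by fold enrichment the shared share was 61.1% in the highest, 14.6% in the seventh and 50.9% in the lowest. The lowest group held tag-rich peaks, with a median of 16 tags at 7.38-fold. Ranked by tags, the shared share was 92.9% in the highest group and 13.2% in the lowest.

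Where KLF5 was found in both phases, the M-phase peak was narrower and held fewer tags for the size of its library. The median over the 659 sites was 2.17 tags per 1000000 filtered tags in M phase and 4.54 in S phase, and the median ratio of M phase over S phase was 0.513 (0.489 to 0.540). With all mapped tags as library size, repeats included, it was 0.334 (0.318 to 0.352). The M-phase value was at least 2-fold lower at 315 of 659 sites (47.8%), and at least 2-fold higher at 0 (0%). It was higher by any amount at 38 sites. Median width was 860 bp in M phase and 1668 bp in S phase, and 653 of the M-phase peaks were the narrower. Per kb of called peak the median ratio was 0.999 (0.958 to 1.02). Called width was larger at higher tag counts in both lists. Between the lowest and highest of 10 groups by tags, median width went from 566.5 to 1172 bp in M phase and from 837 to 2415 bp in S phase. The measure per kb therefore depends on called width and does not show equal binding. By that measure 9 sites (1.37%) were at least 2-fold lower in M phase and 6 (0.91%) at least 2-fold higher. Widths were called separately in each library, and the fragment size estimated by the caller was 224 bp in M phase and 287 bp in S phase. The part of these in the tag ratio was not tested.

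HNF4A and MYC, a growth-promoting helix-loop-helix factor, had lower tag ratios than KLF5 at their own sites of both phases. Their median ratios of tags per 1000000, M phase over S phase, were 0.277 for HNF4A at 1873 sites and 0.286 for MYC at 1459 sites, and both intervals lay below that of KLF5. With all mapped tags the ratios were 0.287 for HNF4A and 0.233 for MYC, against 0.334 for KLF5. At least 2-fold lower values were found at 92.9% of HNF4A and 89% of MYC sites. Per kb their ratios were 0.547 and 0.448. By overlap HNF4A and MYC did not stand lower. Of their M-phase lists 79.9% and 76.3% met their own S-phase list, against 32.3% for KLF5. Those S-phase lists differed in length, with 15437 HNF4A, 11941 MYC and 5928 KLF5 peaks. The part of list length in these shares was not tested. Kept S-phase shares were 12.3% for HNF4A, 12.6% for MYC and 11.4% for KLF5. CTCF, the zinc-finger protein at loop anchors, had a median ratio of 0.330 with 69.4% of its S-phase peaks kept. For CTCF a low tag ratio thus went with many kept sites. Its M-phase library held 1.89 times the filtered tags of its S-phase one, and its M-phase list 24391 peaks. Its labels name goat where those of the other proteins name rabbit. The part of these in its kept share was not tested. Each factor's M-phase list has its own lowest tag count, 9 for KLF5, 12 for HNF4A and 14 for MYC. Per 1000000 filtered tags these floors were 1.22, 0.714 and 0.912 in that order, highest for KLF5. The M-phase HNF4A and MYC libraries were deeper than their S-phase ones. The ratios thus rest on different floors, and the part of the floors in them was not tested.

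In 4 groups of 164 or 165 shared sites by S-phase tags per 1000000, the median ratio was 0.733 in the weakest, then 0.562, 0.425 and 0.353 in the strongest. The S-phase value that forms these groups is the denominator of the ratio, and the M-phase list has no peak below 9 tags, so an order of this kind follows from the grouping and is a description only. Spearman's rho between the 2 values across the 659 sites was 0.52, as a description of 2 libraries whose listed sites share these floors. Sites with S-phase MYC had a median ratio of 0.478 (0.446 to 0.502, 474 sites) and sites without it 0.602 (0.566 to 0.635, 185 sites), with median S-phase counts of 52 and 36 tags. Sites with CTCF had 0.432 (0.372 to 0.479, 143 sites) and sites without it 0.544 (0.511 to 0.562, 516 sites), with median S-phase counts of 57 and 45 tags. The classes thus differed in the same denominator, and its part in these ratios was not tested. For HNF4A and for RAD21, a subunit of the cohesin ring, the intervals with and without the protein overlapped.

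**Figure D2:**
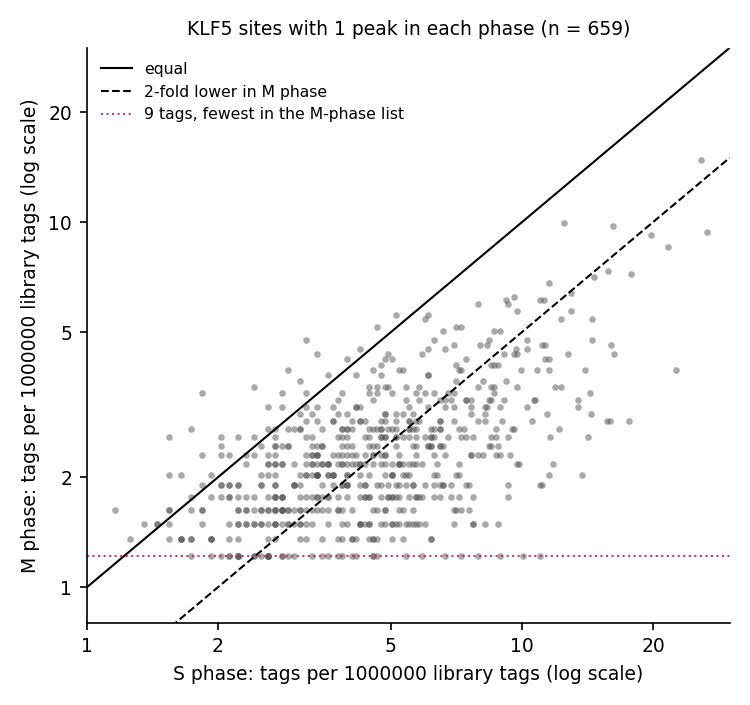
KLF5 signal in M phase (vertical) against S phase (horizontal) at the 659 sites with 1 peak in each phase, in tags per 1000000 filtered library tags on log axes; each point is a site. The solid line marks equal values, the dashed line a 2-fold lower M-phase value and the dotted line 9 tags; 38 points lie above the solid line.

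Summits of the 2 phases lay within 250 bp of each other at most shared sites. The median distance was 101 bp, with 328 of 659 sites (49.8%) within 100 bp, 76.0% within 250 bp and 12.0% more than 500 bp apart. The corresponding medians were all smaller, 58 bp for HNF4A, 81 bp for MYC, 41 bp for RAD21 and 35 bp for CTCF. Sites with summits more than 500 bp apart made up 2.62%, 10.1%, 0.78% and 0.85% in that order.

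Single sites show the range of outcomes (build hg18, 1-based positions, tag counts not scaled to depth). No gene is named at these positions, since no hg18 annotation was used here. The tag-richest of the 10 shared sites with highest M-phase fold enrichment was on chromosome 17. Its M-phase peak, from 40560126 to 40561327, had 54 tags at 36.7-fold and no other protein in M phase. Its S-phase peak, from 40559642 to 40561839, had 163 tags at 33.31-fold with HNF4A and MYC. On chromosome 10 the M-phase peak from 114842991 to 114844214 had 32 tags at 30.03-fold and the S-phase peak 51 tags at 19.81-fold, and HNF4A, MYC and RAD21 overlapped it in both phases. On chromosome 2 the M-phase peak from 159717707 to 159719038 had 32 tags and the S-phase peak 35, which scaled to depth is a ratio of 1.28 in favour of M phase. This was the only one of the 10 above a ratio of 1, and the lowest of them stood at 0.364. On chromosome 19 the M-phase peak from 7800474 to 7801150 had 24 tags and the S-phase peak 47, without HNF4A, MYC, RAD21 or CTCF in either phase. The only M-phase KLF5 peak to overlap all of HNF4A, MYC, RAD21 and CTCF of its own phase was on chromosome 12 from 54610779 to 54611831. It had 24 tags at 8.34-fold, was shared, and also held all 4 in S phase.

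The 3 lowest ratios came from wide S-phase peaks that met an M-phase peak of 9 tags. On chromosome 19 an M-phase peak of 9 tags over 613 bp, from 50599605 to 50600217, met an S-phase peak of 114 tags over 4154 bp, a ratio of 0.111 with summits 1666 bp apart. On chromosome 15 the same tag count and width, from 73038437 to 73039049, met 104 tags over 3648 bp, a ratio of 0.122 with summits 1952 bp apart. Such sites count as shared by overlap, although the positions of strongest signal differ.

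Some strong S-phase sites had no M-phase KLF5 peak within 1 kb. On chromosome 4 an S-phase KLF5 peak of 104 tags at 27.18-fold, from 38350439 to 38352673, lay with HNF4A and MYC in S phase, and no protein was listed there in M phase. The nearest M-phase KLF5 peak was 5.005 kb away. On chromosome 10 a peak of 88 tags, from 22765073 to 22767100, lay with HNF4A, MYC and RAD21 in S phase, and M phase listed RAD21 and CTCF there but none of the 3 factors. Of the 10 such sites of highest fold enrichment, 9 had HNF4A or MYC in S phase and 1 had either in M phase, near the 77.6% and 16.03% of all unkept peaks. The 10 shared sites of highest M-phase fold enrichment also had HNF4A or MYC in S phase in 9 cases, near the 89.8% of all kept S-phase peaks.

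Shared KLF5 peaks lay with other proteins more often than unshared ones, with intervals apart for all 4 proteins in M phase and for HNF4A and MYC in S phase. In M phase, HNF4A of the same phase overlapped 16.4% of shared and 2.93% of unshared KLF5 peaks, MYC 19.1% and 2.23%, RAD21 29.6% and 8.65%, and CTCF 17.8% and 6.28%. Any of the 4 was present at 53.9% of the 685 shared peaks (50.1 to 57.7%) and at 13.3% of the 1433 unshared ones (11.6 to 15.2%). In S phase, HNF4A overlapped 71.9% of kept and 50.3% of unkept KLF5 peaks, and MYC 72.5% and 65.2%. RAD21 gave 30.9% and 26.9%, and CTCF 22.2% and 25.8%, each with overlapping intervals. Any of the 4 was present at 92.8% of kept and 83.2% of unkept S-phase peaks. The classes also differed in tag count and width, as given above.

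**Figure D3:**
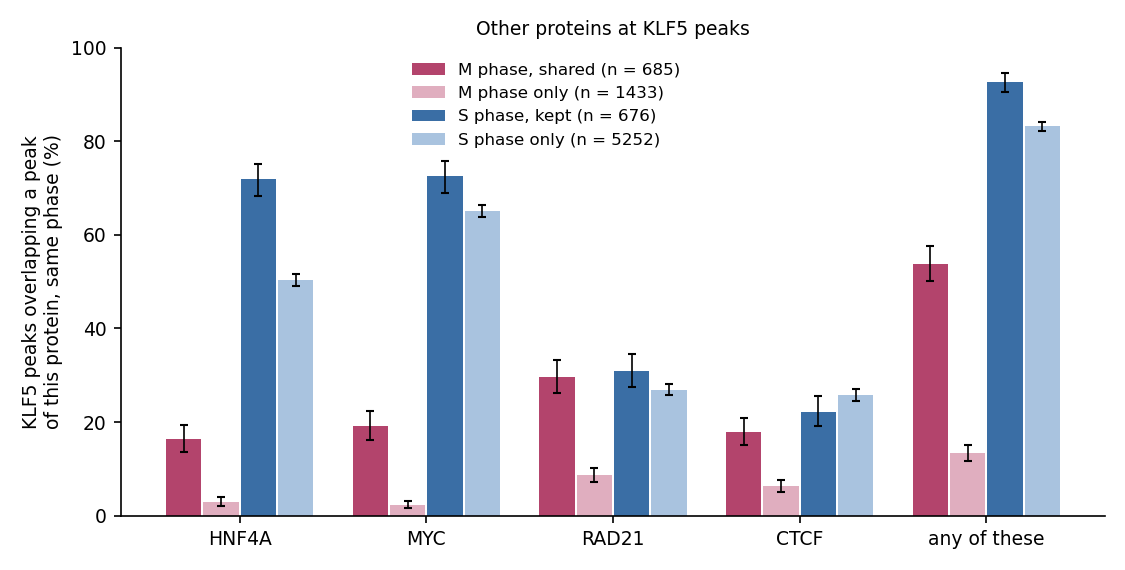
Share of KLF5 peaks, in percent, that overlapped a peak of HNF4A, MYC, RAD21, CTCF or any of these in the same phase, for shared and unshared M-phase peaks and for kept and unkept S-phase peaks. Error bars are exact 95% intervals over peaks; unshared M-phase peaks are lowest for every protein, with 13.3% at any of them.

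Most KLF5 peaks listed only in M phase stood alone. None of the other 4 proteins overlapped 1143 of the 1433 (79.8%) in either phase, against 50 of the 685 shared M-phase peaks (7.30%). The 1143 had a median of 10 tags over 635 bp and an FDR of 21.8%. Tag count went with company here too. Among unshared M-phase peaks another protein of either phase was present at 12.4% with 9 tags, 27.4% with 12 to 14, 50.5% with 15 to 19 and 60.9% of the 23 with 20 to 29. Few unshared peaks lay next to an S-phase KLF5 site. The median distance to the nearest S-phase KLF5 peak was 197 kb, and 26 of 1433 (1.81%) lay within 1 kb. Within 1 Mb there were at the median 4 S-phase KLF5 peaks around an unshared M-phase peak and 10 around a shared one. H3 peaks, the chromatin control, overlapped 11 unshared (0.77%) and 2 shared (0.29%) M-phase peaks, and the intervals of these shares overlapped.

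The leading M-phase-only site had S-phase HNF4A but no S-phase KLF5. It had 20 tags at 26.69-fold on chromosome 3, from 42166333 to 42167271, with RAD21 in M phase and an S-phase KLF5 peak 8.41 kb away. The peak on chromosome 7 from 75195333 to 75196506 had the most tags of any M-phase-only peak, 31 at 21.69-fold, with RAD21 in M phase and none of the 4 in S phase. On chromosome 2 from 165357201 to 165357977, 18 tags at 20.02-fold lay with no other protein in either phase. All 3 had an FDR of 0%.

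S-phase KLF5 peaks were kept more often where HNF4A was present in S phase, and the pooled difference for MYC was not seen among peaks of similar tag count. KLF5 was kept at 15.5% of the 3130 S-phase peaks with HNF4A (14.3 to 16.8%) and at 6.79% of the 2798 without (5.89 to 7.79%). In 4 equal groups by S-phase KLF5 tags, from weakest to strongest, the shares with and without HNF4A were 2.99% and 1.69%, 7.03% and 4.02%, 10.3% and 8.24%, and 32.0% and 20.6%. The share was higher with HNF4A in each group, and the intervals were apart in the strongest. Within that group the peaks with HNF4A were somewhat stronger, with a median of 54 tags against 49, and its range of 40 to 275 tags is wide. The strongest group was then divided further, a step added after these values were seen. At 40 to 59 tags the shares with and without HNF4A were 22.8% (19.6 to 26.2%) and 16.7% (12.8 to 21.3%). At 60 to 99 tags they were 41.8% (36.2 to 47.5%) and 24.8% (17.002 to 33.96%). At 100 tags or more the order turned, with 67.9% of 84 peaks and 83.3% of 12, and wide intervals. With MYC the pooled shares were 12.5% and, without it, 9.23%. Within the same 4 groups, with MYC given first, they were 2.02% and 2.30%, 4.33% and 7.33%, 9.22% and 9.73%, and 28.0% and 31.6%. The share with MYC was the lower one in each of the 4, with overlapping intervals, and MYC peaks were more frequent among tag-rich KLF5 peaks, with median KLF5 tags of 30 with MYC and 23.5 without. With CTCF the shares were lower in the 3 upper groups and 24.0% against 30.5% in the strongest, where the intervals overlapped slightly. In the later division of that group, the shares at 40 to 59 tags had intervals apart. They were 14.1% with CTCF (10.2 to 18.8%) and 23.4% without it (20.3 to 26.7%). At 60 to 99 and at 100 or more tags the share with CTCF was also lower, with overlapping intervals. With RAD21 the order varied between groups.

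**Figure D4:**
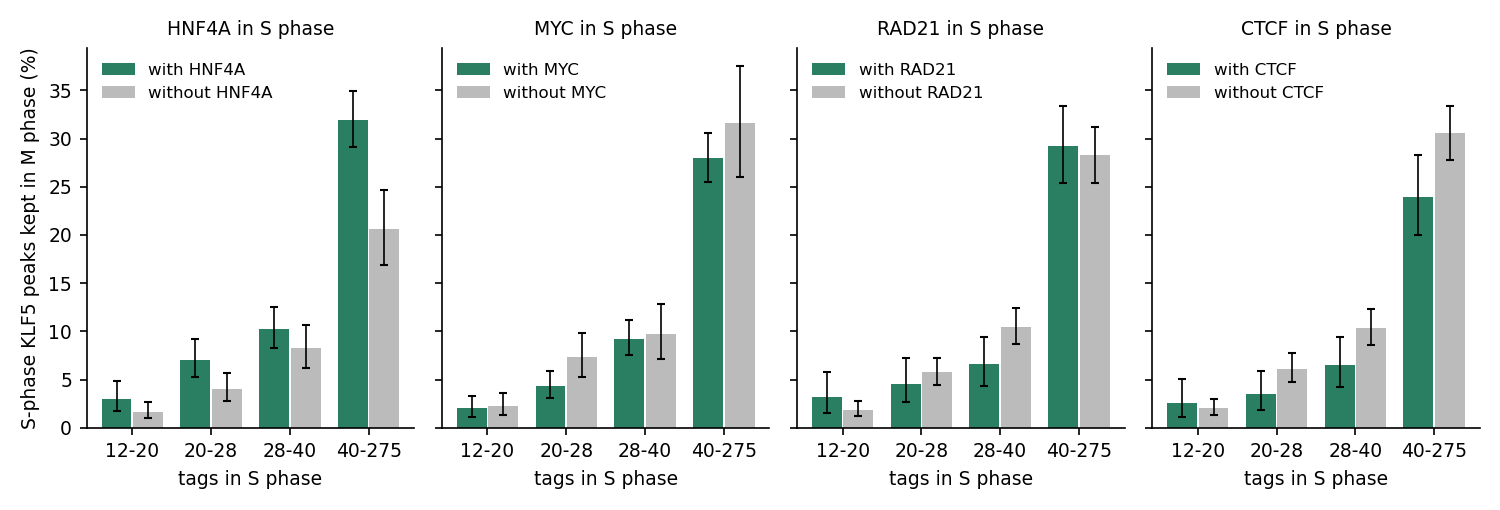
Share of S-phase KLF5 peaks kept in M phase, in percent, with (green) and without (grey) an S-phase peak of HNF4A, MYC, RAD21 or CTCF, in 4 equal groups by S-phase KLF5 tag count. Error bars are exact 95% intervals over peaks; the share with HNF4A is above that without it in each group and reaches 32.0% against 20.6% in the strongest.

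Exact combinations with HNF4A had kept shares of 9.88 to 21.0%, and those without it 5.19 to 11.6%. S-phase KLF5 peaks with none of the other 4 were kept in 5.26% of 931 cases, and those with MYC alone in 8.00% of 963. With HNF4A alone it was 15.4% of 539, about the same as the 15.8% of 1263 with HNF4A and MYC. The classes with HNF4A alone and with MYC alone both had a median of 26 tags. Equal medians do not match the tag-rich peaks of the classes, and the combinations were not divided by tag count. HNF4A with RAD21 gave 21.0% of 100 (13.5 to 30.3%) and RAD21 alone 11.6% of 43 (3.89 to 25.1%), with overlapping intervals. HNF4A with RAD21 and CTCF gave 9.88% of 81, and RAD21 with CTCF 5.19% of 154. By number of other proteins the kept share was 5.26% with 0, 10.3% with 1, 13.7% with 2, 13.4% with 3 and 14.2% with 4. Counting another protein only where its summit lay within 250 bp, the share was 8.76% with 0 and 3.08% (2 of 65) with 4.

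At sites where all 3 factors bound in S phase, M phase usually listed none or a single factor. There were 2362 S-phase KLF5 peaks with both HNF4A and MYC. M-phase KLF5 was present at 15.6% of them, HNF4A at 13.7% and MYC at 17.7%. None of the 3 was listed at 1484 (62.8%). KLF5 alone was listed at 202, HNF4A alone at 194 and MYC alone at 276, and all 3 at 25. Where KLF5 was kept, M-phase HNF4A was present at 24.4% of 369 sites and MYC at 27.6%. Where it was not, they were present at 11.7% and 15.8% of 1993 sites. At the 415 S-phase KLF5 peaks with all 4 other proteins, M phase listed CTCF at 83.4% and RAD21 at 67.2%, against 14.2% for KLF5. The whole M-phase lists held 24391 CTCF, 22966 RAD21 and 2118 KLF5 peaks. Filtered tags, M phase over S phase, stood at 1.89, 2.19 and 0.712 in that order. The part of list length and depth in these shares was not tested. Over all 5252 unkept S-phase KLF5 peaks, 39.9% still overlapped an M-phase peak of another protein, and 16.03% one of HNF4A or MYC.

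At joint sites of M phase the KLF5 summit lay nearer to that of HNF4A than to those of MYC, RAD21 and CTCF, by their medians. The median distance to HNF4A was 106.5 bp in M phase (154 peaks, 82 to 151 bp) and 142.5 bp in S phase (3130 peaks, 133 to 154 bp), and the intervals overlapped. To MYC it was 175 bp in M phase (148 to 231) and 139 bp in S phase (128 to 147), to RAD21 211 bp and 218 bp, and to CTCF 275.5 bp and 304 bp.

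The lists were spread differently over the chromosomes. Chromosomes 16, 17, 19 and 22, which are dense in genes, held 11.9% of the M-phase list (10.6 to 13.4%) and 21.9% of the S-phase list (20.9 to 22.99%). The M-phase share was 18.4% among shared and 8.86% among unshared peaks. Chromosomes 4, 13 and 18, which are poor in genes, held 9.07% of the M-phase and 6.58% of the S-phase list. Chromosomes 5, 7, 12 and 15 held 28.1% of the M-phase and 21.1% of the S-phase list, and 29.03% of the unshared M-phase peaks. Median S-phase tag counts there were 29, 37, 38 and 38 in that order, against 28 over the whole S-phase list. Neither tag count nor copy number was taken into account in the shares by chromosome. These groups of chromosomes were chosen after the counts had been seen. By chromosome the kept share ran from 4.88% on X (41 peaks) and 5.17% on chromosome 16 (271 peaks) to 15.99% on chromosome 12 (394 peaks). Kept shares were slightly higher in dense neighbourhoods, 9.54% with no other S-phase KLF5 peak within 100 kb and 15.5% with 4 or more, and the median tag count in these classes was 25 and 36.

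**Figure D5:**
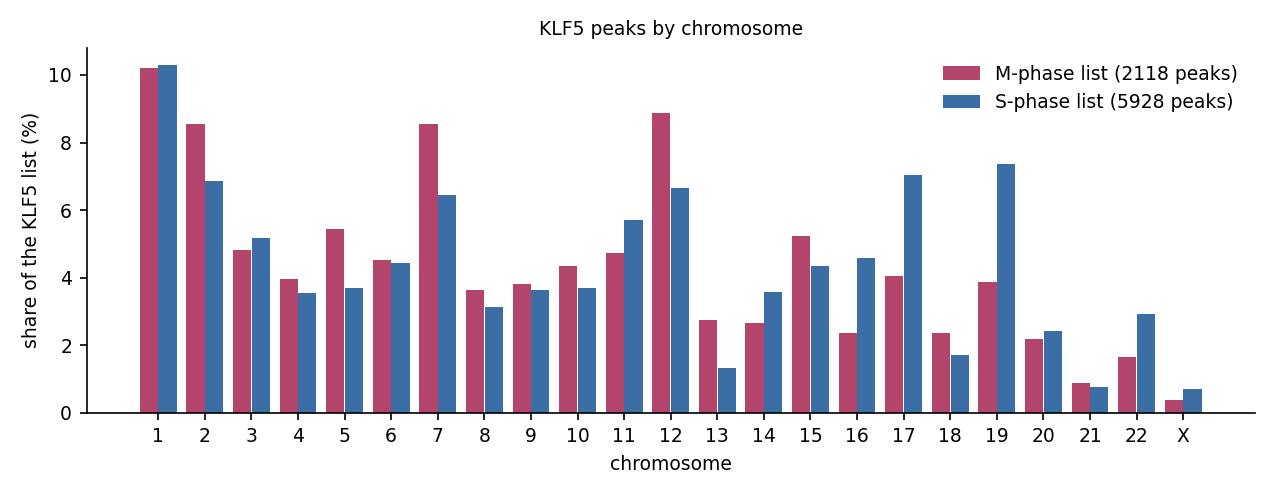
Share of each KLF5 list, in percent, on each chromosome, M-phase list (left bar, 2118 peaks) and S-phase list (right bar, 5928 peaks). Chromosomes 16, 17, 19 and 22 hold smaller shares of the M-phase list and chromosomes 5, 7, 12 and 15 larger ones.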

How the data were processed

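The submitters' processing notes name CASAVA 1.4, BWA, the build hg18 and MACS 1.4. Peaks of each phase were called with MACS 1.4.0rc2 against rabbit IgG, on merged alignments, at a p-value of 1e-05 and with at most 1 tag kept at a position, per the file headers. The authors deposited tag counts as whole numbers without normalization. Their score is the negative log10 of the p-value multiplied by 10, as deposited, with a lowest value of 50. Fold enrichment, as deposited, is a ratio of tags over local background, and the deposited FDR is a percent.

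All listed peaks were used. Tag counts were divided by the filtered tags in the header and multiplied by 1000000. Overlaps were computed in Python 3.11.15 (numpy 2.4.6, pandas 2.3.3, scipy 1.17.1, matplotlib 3.10.9), and the overlap and counting steps were tested on simulated data. Shares have 95% intervals over peaks, and peaks are not replicates. Named regions came from the 10 shared sites, 10 M-phase peaks and 10 S-phase peaks of highest fold enrichment, both peak sets with no KLF5 peak of the other phase within 1000 bp, from the 3 highest and 3 lowest ratios and from the 3 M-phase peaks with most other proteins, all away from H3 peaks. Members, lists and this rule were chosen with earlier results of these data known. Alternatives covered the overlap rule, FDR and score minimums, ranking, library size, H3 peaks and lists of equal length.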

Additional observations from a re-analysis of the deposited data

How the results depend on the processing

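No paired analysis was possible because each phase has 1 KLF5 library and its labels carry no replicate number. Over 19 results and 78 alternatives, 28 values stayed within their intervals and 50 moved; the cause was not tested. The shared share of the M-phase list was 17.1% with 50% of each peak shared, 15.9% with summits within 100 bp, 77.3% with an FDR under 5% in both lists, 79.4% with a score of at least 100, and 23.3% and 19.5% with lists of equal length by score and by fold enrichment. The kept share of the S-phase list was 6.12%, 5.68%, 5.16%, 6.13%, 22.8% and 19.03% under the same settings. For the strongest of 10 groups by fold enrichment, ranking by tags, ranking by score, 50% overlap and summits within 100 bp gave 92.9%, 88.6%, 36.0% and 37.9% in M phase and 41.9%, 43.4%, 20.6% and 23.1% in S phase. For the weakest they gave 13.2%, 11.3%, 27.8% and 19.3% in M phase and 1.18%, 3.71%, 2.19% and 1.85% in S phase. The median ratio of tags per 1000000, M over S, was 0.629 with 50% overlap, 0.550 with summits within 100 bp, 0.544 with an FDR under 5% and 0.334 with all mapped tags as library size. The ratio of widths was 0.631 with 50% overlap and 0.560 with an FDR under 5%, and the summit distance 86 bp, 43 bp and 87 bp with 50% overlap, summits within 100 bp and an FDR under 5%. With summits of the other protein within 250 bp, another protein was present at 36.2% of shared and 8.51% of unshared M-phase peaks, and at 72.9% of kept and 63.7% of unkept S-phase peaks. With other proteins limited to a score of at least 100 the shares were 28.9% and 7.89%, and 78.8% and 66.9%. The shared class stayed the higher in each. With other proteins counted by summits within 250 bp, the kept share by number of S-phase proteins was 8.76% with 0, 12.7% with 1 and 3.08% with 4, and with the score minimum 7.59% with 0 and 12.1% with 1; the other 10 such values stayed within their intervals. The depth of the M-phase library, 7362169 filtered tags with a lowest listed count of 9, limits what can be read from a peak that is not listed.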
